A study of Arabidopsis thaliana with 6 samples.

Results

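WRKY genes encode transcription factors of plants, and 56 of them, listed by locus, are described here in leaves of Arabidopsis thaliana grown at low or normal CO2. Of these genes 53 were in the deposited table of 26402 loci, and 3 (2 of family group I and 1 of group IIc) were not analysed here. The members were chosen by gene family, from a list drawn up after the RPKM values of both columns were known, and which values entered that choice is not stated. The counts below therefore describe its members and support nothing beyond them. Whole leaves of wild-type Columbia (Col-0) plants were taken at 4 weeks, after growth in soil at 380 ppm CO2 (normal CO2, 3 samples) or 100 ppm CO2 (low CO2, 3 samples), in days of 16 h light and nights of 8 h, with 21 °C and a relative humidity of 70%. All plants shared genotype, growth chamber conditions and age apart from the CO2 level. The table gave 1 column of RPKM values for each CO2 level and no column for a single sample. RPKM are reads scaled to length, for most loci that of the coding sequence, and to sequencing depth. Differences between the columns therefore lack a replicate check, and CO2 could not be tested. An RPKM ratio is given as low over normal CO2, or as a fold, with a 95% interval from the recovered reads that covers counting error only.

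WRKY proteins bind the W-box, a short promoter element with a TTGAC core, through a domain named for the amino acids that open it and closed by a zinc finger. The family is best known for defence: many members are switched on by pathogens and by salicylic acid, some activate and some repress immune genes, and others act in senescence, nutrient supply, seed coat and trichome development or flowering. Published classifications sort the proteins into group I, which as a rule has a pair of domains, groups IIa to IIe, which have a single domain and differ in the sequence around it, and group III, whose zinc finger ends in cysteine instead of histidine. MAP kinases phosphorylate several group I proteins, and proteins with a VQ motif bind to members of groups I and IIc.

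The coding DNA that defines these groups is shown for the member with the highest mean RPKM in each group, and for WRKY51, which carries a changed opening. Each stretch runs from the first codon of the WRKY heptapeptide to the last zinc ligand, read 5′ to 3′ from RefSeq (TAIR10.1), and the capitals mark the heptapeptide codons and the codons of the 4 zinc ligands.
WRKY33, group I, domain 1: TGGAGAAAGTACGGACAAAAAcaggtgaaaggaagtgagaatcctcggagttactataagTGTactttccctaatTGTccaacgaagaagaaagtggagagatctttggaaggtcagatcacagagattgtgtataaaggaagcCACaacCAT
WRKY33, group I, domain 2: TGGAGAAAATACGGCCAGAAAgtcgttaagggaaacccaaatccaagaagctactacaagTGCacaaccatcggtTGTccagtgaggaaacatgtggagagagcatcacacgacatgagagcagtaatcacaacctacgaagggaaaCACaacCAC
WRKY18, group IIa: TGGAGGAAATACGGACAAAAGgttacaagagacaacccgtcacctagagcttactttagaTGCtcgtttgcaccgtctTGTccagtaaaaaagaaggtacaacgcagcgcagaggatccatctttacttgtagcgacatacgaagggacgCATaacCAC
WRKY47, group IIb: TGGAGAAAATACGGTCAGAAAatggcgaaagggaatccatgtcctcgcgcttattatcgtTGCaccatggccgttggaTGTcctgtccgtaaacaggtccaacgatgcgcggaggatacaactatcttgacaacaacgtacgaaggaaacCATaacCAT
WRKY75, group IIc: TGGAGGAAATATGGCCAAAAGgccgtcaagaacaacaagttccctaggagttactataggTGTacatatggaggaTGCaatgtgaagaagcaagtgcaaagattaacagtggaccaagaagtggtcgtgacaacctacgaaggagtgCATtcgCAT
WRKY51, group IIc: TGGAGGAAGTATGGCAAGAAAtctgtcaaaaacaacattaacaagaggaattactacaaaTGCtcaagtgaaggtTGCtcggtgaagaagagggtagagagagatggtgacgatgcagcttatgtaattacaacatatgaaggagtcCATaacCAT
WRKY15, group IId: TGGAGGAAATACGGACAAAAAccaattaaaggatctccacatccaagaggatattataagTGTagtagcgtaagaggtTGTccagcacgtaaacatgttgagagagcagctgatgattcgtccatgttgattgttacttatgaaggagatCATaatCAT
WRKY69, group IIe: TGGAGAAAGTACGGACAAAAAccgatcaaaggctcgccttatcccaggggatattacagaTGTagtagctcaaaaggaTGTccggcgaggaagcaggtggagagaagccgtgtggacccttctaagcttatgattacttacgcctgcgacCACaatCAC
WRKY70, group III: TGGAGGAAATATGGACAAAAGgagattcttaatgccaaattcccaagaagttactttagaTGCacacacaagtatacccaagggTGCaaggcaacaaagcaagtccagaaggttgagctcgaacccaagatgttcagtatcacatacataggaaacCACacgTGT

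A search of the coding sequences of all 56 members found 2 domains in 10 of the 11 group I genes and 1 domain in the other 46 genes. All 8 group III domains ended in a cysteine codon with 7 codons between the first cysteine pair, and the other 58 domains ended in histidine. The search bears on groups I and III and found a single domain in WRKY19 of group I. It fixed the tryptophan, the first lysine and the tyrosine of the heptapeptide and limited the spacing of the zinc ligands. It would therefore miss a domain changed there, in WRKY19 or in another gene. It does not tell groups IIa to IIe apart, whose labels are those of the published classifications. The heptapeptide was standard in all but 3 of the domains found. Counted from 1 at the tryptophan that opens it, WRKY50 and WRKY51 carried Q6K and WRKY19 carried R2Q.

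As leaf material the columns showed high RBCS1A, a Rubisco small subunit gene, at 10462.5 RPKM in normal and 24998.5 RPKM in low CO2. RCA, the Rubisco activase gene, stood at 6572 and 7209.7 RPKM. The root gene PYK10 was at 0.025 and 0 RPKM, and the seed storage genes CRU3 and OLEO1 were listed at 0 in both. In whole leaves, fewer cells of a type and less RNA per cell cannot be told apart. The depths behind the columns, as inferred from the values, were 25429325 and 21887516 reads. A floor of 3 reads was set by choice for a gene at 0 in low CO2. Folds of genes with reads in both columns use the reads as they are.

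Summed over the 53 genes, WRKY transcripts stood at 1559 RPKM in normal CO2 and 888 RPKM in low CO2, 1.76-fold lower. A mean of at least 1 RPKM over both columns was reached by 43 members, which are called counted, and 10 were below it. On the scale log2((low CO2 RPKM + 1)/(normal CO2 RPKM + 1)), 16 of the 43 were at least 2-fold lower at low CO2, 4 were at least 2-fold higher and 23 lay within 2-fold. Among all 16563 counted genes 11.1% were lower and 6.07% higher by this rule. The median log2 ratio was -0.38 for the counted members and -0.06 for all counted genes. The whole counting interval of the RPKM ratio lay beyond 2-fold for 14 members lower and 2 higher, against 9.52% lower and 5.05% higher among 16095 counted genes with recovered reads. With a pseudocount of 5 RPKM instead of 1, 10 members were at least 2-fold lower, beside 7.09% of all counted genes at the same setting.

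**Figure D1:**
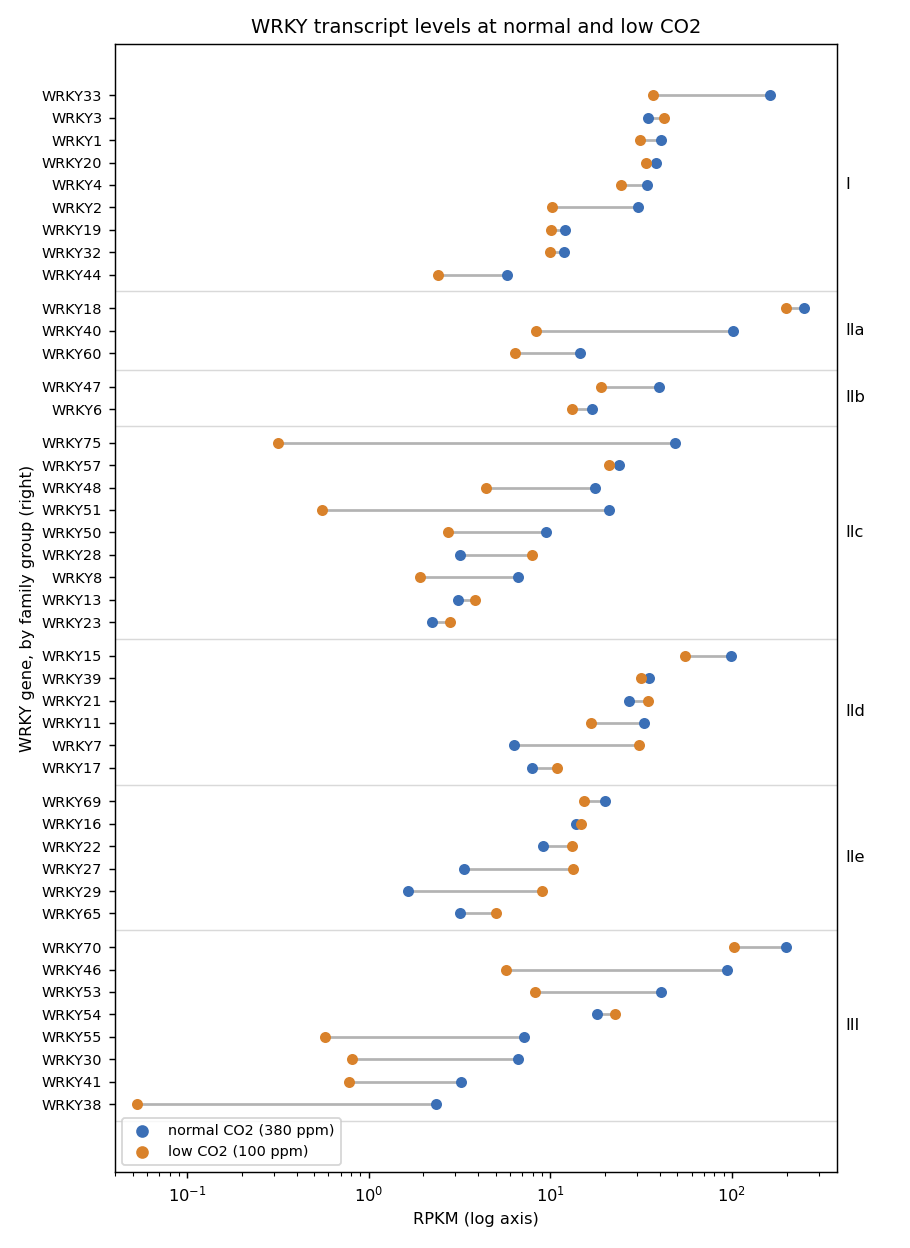
RPKM on a log axis for the 43 counted WRKY genes, ordered within family groups by mean RPKM, with 1 point for each CO2 level and a grey line between them; there are no replicate values and so no error bars. WRKY75 has the longest line, from 48.7 RPKM in normal to 0.315 RPKM in low CO2, while WRKY18 stays the most abundant member in both columns.

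By family group, members at least 2-fold lower were 6 of 8 counted in group III, 5 of 9 in group IIc, 2 of 3 in group IIa, 1 of 2 in group IIb, 2 of 9 in group I, and none of 6 each in groups IId and IIe, beside 11.1% of all counted genes. Members at least 2-fold higher were 2 of 6 in group IIe, 1 of 6 in group IId and 1 of 9 in group IIc, beside 6.07%. In groups this small, the counts of lower members in groups I, IId and IIe lie near the share of all genes. Median log2 ratios ran from -1.88 in group III and -1.39 in group IIc to 0.10 in group IId and 0.50 in group IIe. Summed RPKM was 2.96-fold lower in group IIc and 2.61-fold lower in group III, 1.84-fold lower in group I, and in group IIe higher at low CO2, at 51.3 and 70.9 RPKM. No test of a difference between groups was possible on 1 column per CO2 level.

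**Figure D2:**
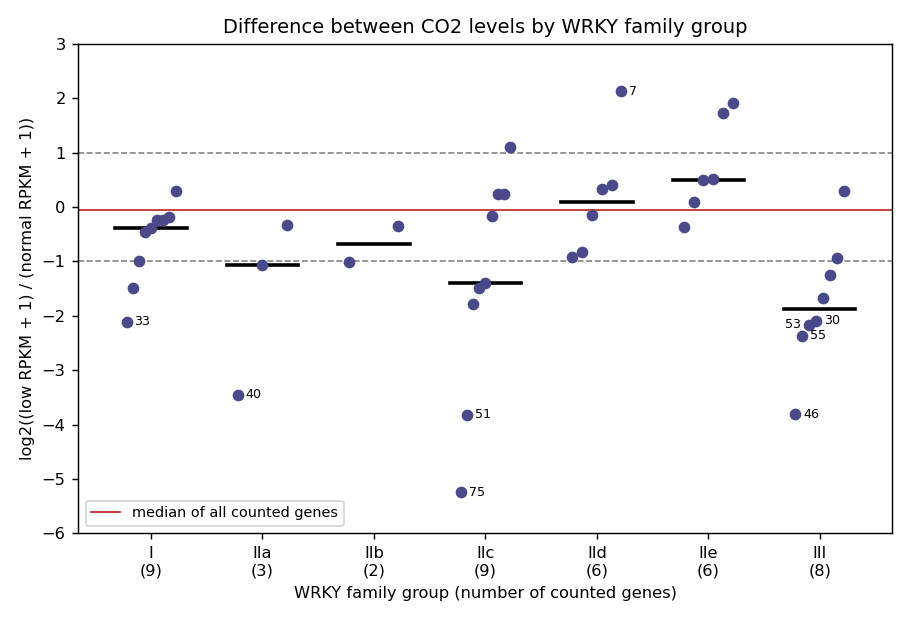
Log2 ratio of low over normal CO2 (RPKM + 1) for each counted WRKY gene by family group; black bars are group medians, dashed lines mark 2-fold, and the red line is the median of all counted genes (-0.06). Numbers name the genes beyond 4-fold: all lie low except WRKY7 (2.13), and no point of groups IId and IIe lies under the lower dashed line.

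Group III, with the cysteine-ended finger, had the lowest median. WRKY70 (AT3G56400), a regulator at the meeting point of salicylic acid and jasmonate signalling, was its most abundant member at 199 RPKM in normal and 103 RPKM in low CO2. That is 1.93-fold lower (1.83 to 2.03), just within 2-fold. WRKY46 (AT2G46400), a gene of basal resistance and stomatal responses, stood at 93.4 and 5.73 RPKM, 16.3-fold lower (13.5 to 19.9). In WRKY53 (AT4G23810), a regulator of leaf senescence, the values were 40.6 and 8.27 RPKM, 4.91-fold lower (4.18 to 5.80). WRKY54 (AT2G40750), which acts with WRKY70 to restrain senescence, stood apart from them at 18.1 RPKM in normal and 22.6 RPKM in low CO2, a ratio of 1.24 (1.10 to 1.41). WRKY55 (AT2G40740), the next annotated gene to WRKY54, on the other strand and with 919 bases between them, had 7.14 and 0.574 RPKM, 12.4-fold lower (6.77 to 25.4).

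The other members of group III were scarce at low CO2. WRKY30 (AT5G24110), a gene of stress tolerance, was at 6.66 RPKM in normal and 0.804 RPKM in low CO2, 8.28-fold lower (4.94 to 14.9). WRKY41 (AT4G11070), induced by flagellin, was 4.14-fold lower (2.40 to 7.61) from 3.22 and 0.778 RPKM, and both genes had 16 reads at low CO2. For WRKY38 (AT5G22570), a negative regulator of basal defence, 52 reads in normal CO2 stood against 1 read in low CO2, a fold of 44.8 with an interval of 7.69 to 1801. These 3 genes and WRKY55 have a mean under 5 RPKM, so that a filter at that level leaves only WRKY46 and WRKY53 as lower. WRKY38 and WRKY41 lay within 2-fold with a pseudocount of 5 RPKM, a value above both of their levels.

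Group IIc held the member with the largest difference of the family. WRKY75 (AT5G13080), a gene of phosphate starvation, root hair growth and senescence, had 539 reads in normal CO2 and 3 in low CO2 (48.7 and 0.315 RPKM), and so few reads leave its fold of 155 with an interval of 52.6 to 752. WRKY51 (AT5G64810), whose protein with that of WRKY50 (AT5G26170) represses jasmonate signalling in plants with low oleic acid, had 20.9 and 0.550 RPKM (310 and 7 reads), 38.1-fold lower (18.3 to 95.6). WRKY50 itself stood at 9.47 and 2.73 RPKM, 3.47-fold lower (2.33 to 5.32). WRKY50 and WRKY51, the 2 genes with Q6K, were thus both lower at low CO2, with counting intervals that do not overlap. The third gene with a changed heptapeptide, WRKY19 (AT4G12020) of group I, lay within 2-fold at a ratio of 0.838 (0.779 to 0.902). WRKY48 (AT5G49520), a negative regulator of basal resistance, had 17.7 and 4.43 RPKM, 3.99-fold lower (3.26 to 4.92), and WRKY8 (AT5G46350), of salt and virus responses, was 3.46-fold lower (2.45 to 5.003) from 6.63 and 1.92 RPKM.

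WRKY28 (AT4G18170) was the higher member of this group. This activator of the salicylic acid synthesis gene ICS1 was at 3.17 RPKM in normal and 7.95 RPKM in low CO2, a ratio of 2.50 (1.90 to 3.33) that reaches under 2-fold in its interval. WRKY57 (AT1G69310), of drought tolerance and jasmonate-induced senescence, had a ratio of 0.885 (0.775 to 1.01) at 23.8 and 21.1 RPKM. WRKY13 (AT4G39410) and WRKY23 (AT2G47260), known from stem development and flowering time and from auxin responses, were low in the leaf at 3.10 and 2.22 RPKM in normal CO2, with intervals that include 1. With a pseudocount of 5 RPKM, WRKY8 (-0.75), WRKY50 (-0.90) and WRKY28 (0.66) lay within 2-fold on the log2 scale.

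Group IIa consists of 3 genes that act together as repressors of immunity and in abscisic acid signalling, and their RPKM ratios ran from 0.0824 to 0.798. WRKY18 (AT4G31800), the most abundant WRKY gene of the leaf, was at 249.9 RPKM in normal and 199.5 RPKM in low CO2, 1.25-fold lower (1.20 to 1.30). WRKY40 (AT1G80840) had 101 and 8.32 RPKM, 12.1-fold lower (10.4 to 14.3). By fold, WRKY60 (AT2G25000) stood between them, with 14.5 and 6.41 RPKM, 2.27-fold lower (1.82 to 2.84). Its log2 ratio of -1.07 came to -0.97 and -0.95, within 2-fold, when both columns were scaled to the same median or quantile normalized.

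In group I 7 of 9 counted members lay within 2-fold, beside 82.9% of all counted genes. WRKY33 (AT2G38470), the MAP kinase target that drives camalexin synthesis against necrotrophic fungi, was at 162 RPKM in normal and 36.8 RPKM in low CO2, 4.41-fold lower (4.15 to 4.69). WRKY2 (AT5G56270), a gene of pollen development and of polarity in the zygote, was the other lower member, at 30.4 and 10.2 RPKM and 2.98-fold lower (2.68 to 3.31). WRKY3 (AT2G03340, 34.4 and 42.4 RPKM) and WRKY4 (AT1G13960, 34.1 and 24.5 RPKM), paralogues in resistance to necrotrophs, had nearly equal levels at normal CO2 and lay on either side of even at low CO2. The ratio of WRKY1 (AT2G04880) was 0.761 (0.701 to 0.824), and WRKY20 (AT4G26640), WRKY19 and WRKY32 (AT4G30935) had ratios from 0.838 to 0.877. WRKY19, which joins a WRKY domain to an immune receptor and a kinase, was at 11.99 and 10.05 RPKM. WRKY44 (AT2G37260), the trichome and seed coat gene also called TTG2, lay at -0.99 on the log2 scale, just within 2-fold, at 5.78 and 2.41 RPKM. Its plain RPKM ratio was 0.418 (0.301 to 0.572), and with a pseudocount of 0.1 RPKM its log2 ratio was -1.23.

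In group IIb only 2 of 6 members were counted. WRKY47 (AT4G01720) stood at 39.5 and 19.03 RPKM, 2.07-fold lower (1.89 to 2.28), and was the member nearest to the 2-fold line on its far side. After median scaling and after quantile normalization it lay at -0.91 on the log2 scale, within 2-fold. WRKY6 (AT1G62300), of senescence and phosphate transport, had a ratio of 0.768 (0.683 to 0.864) at 17.1 and 13.1 RPKM. WRKY42 (AT4G04450), also a regulator of phosphate transport, was not counted, with 12 reads at normal and 36 reads at low CO2.

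Group IId proteins bind calmodulin, and 5 of the 6 counted genes lay within 2-fold, a share near the 82.9% of all counted genes. WRKY7 (AT4G24240), a repressor of defence genes, was the exception at 6.31 RPKM in normal and 30.9 RPKM in low CO2, 4.90-fold higher (4.14 to 5.83). Its log2 difference of 2.13 was the largest upward among the members with a pseudocount of 1 RPKM, but with 0.1 RPKM WRKY29 (AT4G23550) stood above it, at 2.38 against 2.27. WRKY15 (AT2G23320), a gene of cell expansion and salt stress, was the most abundant of the group at 98.9 and 55.2 RPKM, a ratio of 0.558 (0.520 to 0.599). WRKY11 (AT4G31550) and WRKY17 (AT2G24570), which act together as negative regulators of basal resistance, stood at 32.6 and 16.8 RPKM and at 7.96 and 10.8 RPKM. WRKY11 was just within 2-fold at -0.91 on the log2 scale. WRKY21 (AT2G30590) had a ratio of 1.27 (1.15 to 1.40), and WRKY39 (AT3G04670) 0.907 (0.819 to 1.00) at 34.9 and 31.7 RPKM.

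Group IIe contained the other strongly higher members, all from low levels at normal CO2. WRKY27 (AT5G52830), whose loss delays symptoms of bacterial wilt, was at 3.35 and 13.4 RPKM, 3.995-fold higher (3.14 to 5.12). WRKY29, placed with WRKY22 (AT4G01250) downstream of the flagellin receptor, was at 1.64 and 8.97 RPKM, a ratio of 5.47 with no interval because its reads were not recovered. WRKY22 had a ratio of 1.45 (1.20 to 1.75) at 9.06 and 13.1 RPKM, and WRKY65 (AT1G29280) one of 1.57 (1.12 to 2.21). WRKY69 (AT3G58710), the most abundant of the group, was at 20.1 and 15.3 RPKM. WRKY16 (AT5G45050), which joins a WRKY domain to an immune receptor, had a ratio of 1.07 at 13.9 and 14.8 RPKM, with an interval of 0.988 to 1.15 that includes 1.

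The 10 members that were not counted stayed at or under 1.04 RPKM in both columns. They were WRKY9 (AT1G68150), WRKY31 (AT4G22070), WRKY42 and WRKY72 (AT5G15130) of group IIb, WRKY12 (AT2G44745), WRKY43 (AT2G46130) and WRKY49 (AT5G43290) of group IIc, WRKY74 (AT5G28650) of group IId, and WRKY14 (AT1G30650) and WRKY35 (AT2G34830) of group IIe. WRKY43 was listed at 0 in both columns, and WRKY9, WRKY49 and WRKY72 had 1 or 2 reads in normal CO2 and none at low CO2, under the floor of 3 reads. WRKY42 had a ratio of 3.49 (1.77 to 7.36) and WRKY74 one of 2.66 (1.03 to 7.63), from 7 and 16 reads. Around the 2-fold line the nearest counted members past it were WRKY47 (-1.01), WRKY60 (-1.07) and WRKY28 (1.10), and the nearest within it WRKY44 (-0.99), WRKY70 (-0.94) and WRKY11 (-0.91).

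The family genes that were not on the list gave few values. Of 16 such genes 15 were in the table and 3 were counted, of which 1 was lower by at least 2-fold and none was higher by as much. With no filter on low values 4 were lower by as much, beside 9.08% of all genes at that setting. The added genes had means under 1 RPKM, among them WRKY62 (38 against 1 read) and WRKY63 (30 against 3 reads) of group III. WRKY58, of group I, stood at 16.4 and 5.76 RPKM, 2.85-fold lower (2.38 to 3.42). WRKY52, the immune receptor gene RRS1, had a ratio of 0.936 (0.859 to 1.02), and WRKY36 was at 2.85 and 1.53 RPKM.

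Closest relatives within a group were then set side by side, since WRKY genes often come in duplicated pairs. Each of the 53 members in the table was paired with the one of its group whose coding DNA it matched best, where the match was mutual. This gave 16 pairs with 48.7% to 76.0% identity. The 3 members absent from the table and the family genes not on the list were not compared. A closer relative of a paired gene may therefore be missing. No pair of members shared a run of 50 identical bases, so reads of that length would not be common to 2 of these coding sequences. Both genes were counted in 11 pairs, and in 6 of these the log2 ratios had opposite signs, also after median scaling and quantile normalization. Of the 43 counted members 30 had a log2 ratio below 0, beside 54.4% of all counted genes, so genes not paired also often differ in sign. How often they do was not counted, and 6 of 11 is not read as a trait of relatives. Among these 6 pairs only WRKY8 with WRKY28 and WRKY15 with WRKY7 had a gene past 2-fold. WRKY11 (-0.91) and WRKY17 (0.40), the pair with the highest identity, differed by 1.31 on the log2 scale. WRKY8 (-1.39) and WRKY28 (1.10), at 63.4% identity, lay past 2-fold on opposite sides. WRKY15 (-0.83) and WRKY7 (2.13) had the widest gap among the 11, 2.96, at 54.7% identity. The pair WRKY54 (0.30) and WRKY70 (-0.94) is another with opposite signs.

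**Figure D3:**
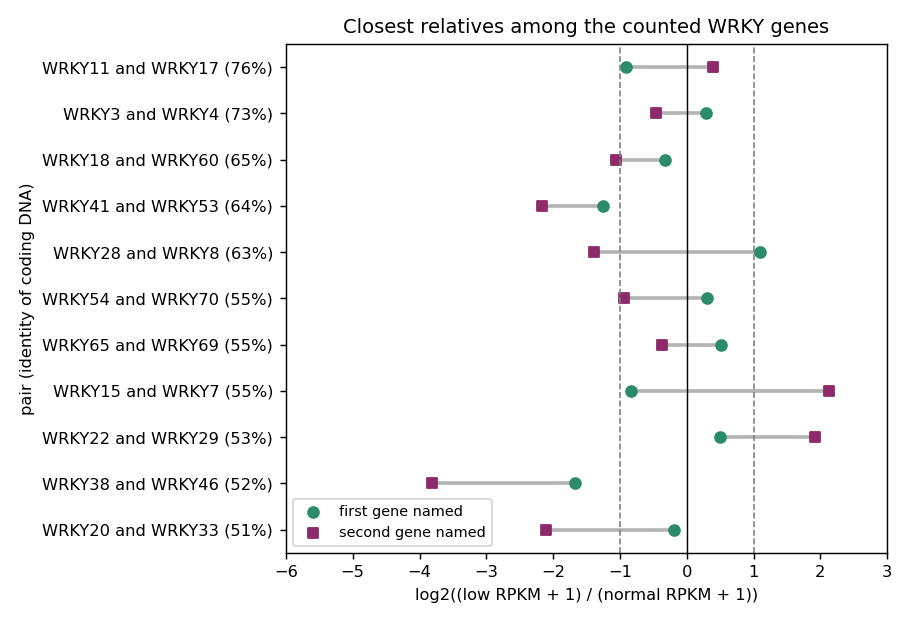
Log2 ratio of low over normal CO2 (RPKM + 1) for both genes of the 11 mutual best pairs with both members counted, ordered by identity of coding DNA (in brackets, percent); circles are the first gene named, squares the second, and dashed lines mark 2-fold. Pairs were sought only among listed members in the table. The line crosses 0 in 6 pairs, and it is longest for WRKY15 and WRKY7 (2.96).

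W-boxes, the elements that WRKY proteins bind, were counted in the 250 bases before the annotated start of each gene in RefSeq TAIR10.1. The letters searched were TTGACC and TTGACT on both strands, and each match was counted also where it overlapped another. A match was found in 28.5% of the 25801 windows of table genes, and in 20 of the 56 members (35.7%). Matches at 2 or more places were found in 6.20% of table genes and in 9 members (16.1%). Among the counted genes of the table the share with a match was 35.6% for those at least 2-fold lower, 26.1% for those at least 2-fold higher and 27.3% for those within 2-fold. For the members the counts were 6 of 16 lower, 2 of 4 higher and 6 of 23 within 2-fold. By family group a match was found in 6 of 11 genes of group I, 0 of 3 of IIa, 2 of 6 of IIb, 4 of 13 of IIc, 3 of 7 of IId, 1 of 8 of IIe and 4 of 8 of III, and no difference between groups was tested.

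The windows are shown for the 3 members with the largest log2 difference, chosen whatever its direction. All 3 were lower at low CO2, and a role of these windows in that was not tested. Matches are in capitals, the strand is that of the gene, the coordinates are those of TAIR10.1, and no label or header names the authors' build. The window of WRKY75 (chr5:4151202-4151451, minus strand) held 1 match, whose first base lay at position -11 from the gene start. Those of WRKY51 (chr5:25907997-25908246, plus strand) and WRKY46 (chr2:19044956-19045205, minus strand) held no match in these 250 bases. Both do contain the TTGAC core followed by A, in WRKY46 on the other strand, and these letters were not searched.
WRKY75: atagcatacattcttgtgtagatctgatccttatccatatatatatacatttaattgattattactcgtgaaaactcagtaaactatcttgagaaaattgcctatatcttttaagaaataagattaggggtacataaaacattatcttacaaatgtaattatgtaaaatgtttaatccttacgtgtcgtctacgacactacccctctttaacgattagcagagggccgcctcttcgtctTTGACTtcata
WRKY51: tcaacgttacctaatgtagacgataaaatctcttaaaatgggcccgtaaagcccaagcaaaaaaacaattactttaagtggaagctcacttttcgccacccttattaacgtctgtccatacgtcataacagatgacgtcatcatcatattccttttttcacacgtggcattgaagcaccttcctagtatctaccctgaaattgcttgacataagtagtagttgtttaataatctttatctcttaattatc
WRKY46: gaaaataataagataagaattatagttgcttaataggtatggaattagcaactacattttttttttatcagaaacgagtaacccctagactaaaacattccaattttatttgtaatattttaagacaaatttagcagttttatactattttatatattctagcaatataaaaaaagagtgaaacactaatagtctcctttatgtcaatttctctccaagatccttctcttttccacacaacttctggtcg

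Genes that act with WRKY proteins were described from lists of partners, kinases and reported targets, drawn up with earlier results of these data known, and their counts stand beside 11.1% lower and 6.07% higher among all counted genes. Of 9 counted genes (10 listed) for proteins with a VQ motif, which bind WRKY proteins, 5 were lower by at least 2-fold, none was higher by as much, and the median log2 ratio was -1.20. SIB1, a partner and activator of WRKY33, was at 264 RPKM in normal and 36.4 RPKM in low CO2, 7.25-fold lower (6.49 to 8.10). The VQ gene AT2G22880 was at 43.7 and 6.55 RPKM, and AT1G78410 at 36.7 and 7.90 RPKM. JAV1, a repressor of jasmonate defence, was 4.91-fold lower (4.12 to 5.89). MKS1, which links the kinase MPK4 to WRKY33, lay within 2-fold at 16.1 and 20.4 RPKM.

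In the MAP kinase cascade of immunity 1 of 12 listed genes was not analysed here, and 3 of 11 counted genes were lower by at least 2-fold, none was higher by as much, and the median log2 ratio was -0.74. MPK11, a close relative of MPK4, had 48.1 and 7.20 RPKM, 6.68-fold lower (5.56 to 8.08). The kinase kinase genes MKK9 and MKK5 were 2.34-fold (2.20 to 2.50) and 2.23-fold lower (1.995 to 2.50), the latter with an interval that reaches under 2-fold. MPK4 and MPK6, whose products phosphorylate or release WRKY33, had ratios of 1.03 (0.954 to 1.12) and 0.864 (0.806 to 0.926).

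Reported targets of WRKY proteins were lower by at least 2-fold in 9 of 11 counted cases and higher in none, and their median log2 ratio was -2.19. The largest log2 differences of the list were those of PR1, the pathogenesis-related marker (-5.90, from 245 against 3.12 RPKM), PAD3, of camalexin synthesis (-4.27, from 54.3 against 1.86 RPKM), and PBS3, of salicylic acid synthesis (-3.57, from 41.1 against 2.54 RPKM). FRK1, a receptor kinase gene of early immune responses and a target of WRKY6, had 6.85 and 0.174 RPKM, 39.4-fold lower (21.2 to 82.8). ACS2 and ACS6, ethylene synthesis genes bound by WRKY33, stood at 4.81 and 0.273 RPKM and at 26.8 and 6.37 RPKM. CYP71A13, of camalexin synthesis, was at 16.99 and 2.88 RPKM, beside the lower WRKY33. EDS1, a hub of immune signalling, was 4.77-fold lower (4.32 to 5.27). ICS1, of salicylic acid synthesis, was 2.36-fold lower (2.16 to 2.59), and its reported activator WRKY28 was higher. Regulation of the listed targets by WRKY proteins was not tested. PHO1, the phosphate exporter gene repressed by WRKY6, had a ratio of 1.60 (1.46 to 1.76).

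**Figure D4:**
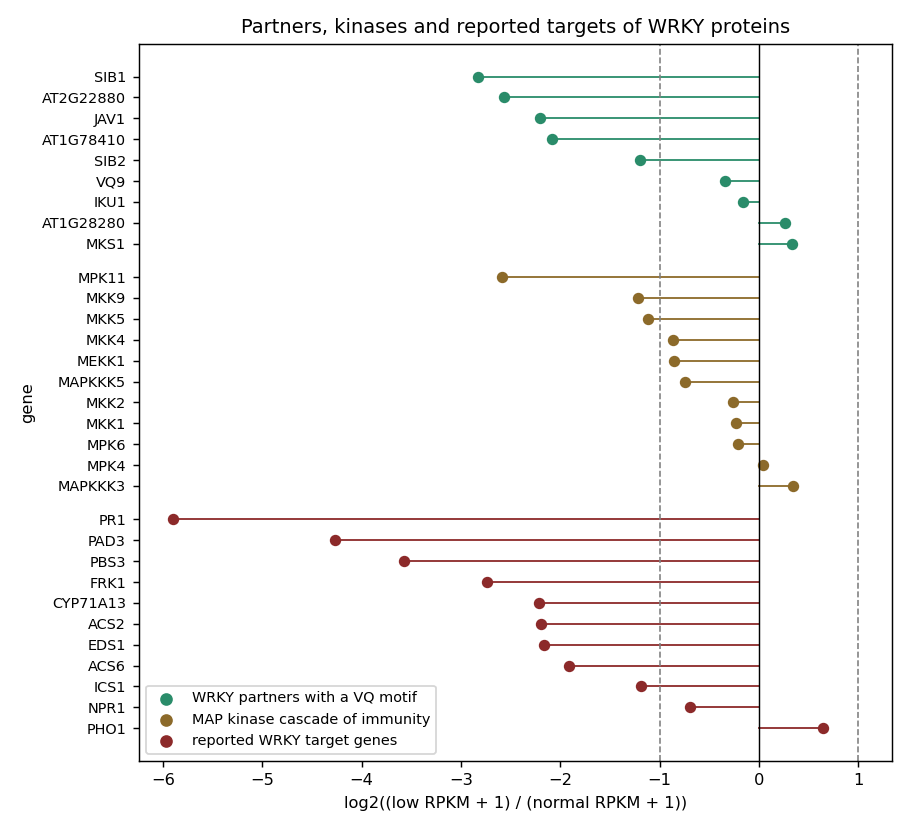
Log2 ratio of low over normal CO2 (RPKM + 1) for the counted genes of 3 lists: VQ motif partners, MAP kinase cascade and reported WRKY targets; dashed lines mark 2-fold. In each list more genes lie left of 0 than right of it, beside 54.4% of all counted genes left of 0. PR1 lies farthest left at -5.90.

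How strand was used in counting is not given in the sources used here, so that reads of overlapping genes on opposite strands cannot be told apart. An annotated gene on the other strand overlapped 11 members, by 26 to 517 bases of the gene span. How much of this lies in coding sequence, to which most values scale, was not determined. WRKY41 had the longest overlap, with AT4G11080 at 1.999 and 2.595 RPKM. The part of such reads in the values of these members was not tested.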

How the data were processed

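RNA of whole leaves (PureLink kit, TruSeq RNA library kit version 2, per the labels' protocols) was sequenced from 6 samples. FastQC, TopHat and Cufflinks are named, without versions, in the submitters' processing notes. Genome build, annotation, counting and pooling are not given in the sources used here. RPKM values were deposited by the authors as 2 columns, 1 per CO2 level, taken as the authors' value for each group with no SD and no n. Labels do not say that replicates came from separate plants.

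The read number behind each value was recovered with the RefSeq (TAIR10.1) coding length less the 3 bases of the stop codon. Of 21010 loci above 0, 20247 (96.4%) gave whole reads within 0.0001 reads in each column. Ratios carry exact Clopper-Pearson 95% intervals, which cover counting error only. A gene was counted if its mean reached 1 RPKM, with a pseudocount of 1 RPKM and a size rule of 2-fold in place of a test. Recovery and size rule were checked on simulated whole reads, built with the same coding lengths and with changes planted in genes with many reads. The size rule was not checked there on genes with few reads. Members and lists, and the classification into groups, were chosen with earlier results of these data known. Values were given for members whose interval lay beyond 2-fold, for WRKY38 as reads. Values in both columns were also planned for the 4 most abundant of each group. Of these, WRKY1 and WRKY21 were given by ratio, WRKY42 by reads and ratio, WRKY20 within a range and WRKY31 under a shared limit. Other members were given by the text's choice after their values were seen. From each list the largest differences past 2-fold were named, and others after their values were seen. The domain was planned as the sequence to show and is given as coding DNA. Alternatives were other pseudocounts, filters and scalings. Python 3.11.15, pandas 2.3.3, scipy 1.17.1 and Biopython 1.88 were used.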

Additional observations from a re-analysis of the deposited data

How the results depend on the processing

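The median log2 ratio of the members, -0.38 as reported, stayed below 0 under every alternative run: -0.39 with a pseudocount of 0.1 RPKM, -0.35 with 5 RPKM, -0.23 with no filter on low values, -0.36 with a mean of at least 5 RPKM, -0.28 after median scaling and -0.29 after quantile normalization. A pseudocount is added to both columns alike and cannot change the sign of a ratio, so those settings could not bring the members' median above 0. The scalings moved the median of all counted genes from -0.06 to 0.04 and 0.05, a shift of 0.09 and 0.11. The number of members at least 2-fold lower, 16 as reported, ran from 10 to 17 under these settings, with 10 under a pseudocount of 5 RPKM, which draws low genes towards 0 by construction. The share of all genes at least 2-fold lower ran with it, from 7.09% under that pseudocount to 12.7% under 0.1 RPKM, with 9.85% and 9.67% after the scalings. The 4 higher members were 2 by whole counting intervals, where WRKY29 has none and that of WRKY28 reaches under 2-fold. No counted member at least 2-fold apart changed direction under other pseudocounts or scalings, but this was no test. Pseudocounts cannot change a sign, and the scalings shifted the median of all genes by only 0.09 and 0.11. Of 168 log2 ratios of the 42 members with a counting interval, 18 moved by more than the wider arm of that interval on the log2 scale. Moves were measured from the ratio as reported. The interval is that of the plain RPKM ratio, so a ratio with a pseudocount can lie outside it without being among the 18. Of 132 counts for groups and lists 11 moved by over 1.5 times. No paired analysis was possible because the columns carry no replicate number, and for the same reason no replicate could be left out. Depth limits the members with few reads: 6 of the 20 members past 2-fold had under 20 reads in their smaller column.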
